A study of Mus musculus with 15 samples.

Results

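miR-103 and miR-107 are 2 of the 584 miRNA assays that TaqMan low density arrays, cards of small wells each holding the real-time PCR assay for 1 small RNA, measured in mouse pancreatic endocrine cell lines. The members were every assay named for either miRNA, with any arm suffix. The tables name them mmu-miR-103 and mmu-miR-107, and each has 1 well on card A. The 15 samples form 5 groups of 3 replicates: αTC1-6 without treatment at 24 h and at 48 h, αTC1-6 given cytokines over 24 h or over 48 h, and untreated βTC1 at 24 h. αTC1-6 is a glucagonoma line used as a model of the glucagon-secreting α cell, and βTC1 is an insulinoma line used as a model of the insulin-secreting β cell. Treated cells received IL-1β at 50 IU/ml with IFN-γ and TNF-α at 1000 IU/ml each, while untreated cells received nothing. No cytokine-treated βTC1 sample was analysed here. Each cell type is represented by a single tumour-derived line, and the study's methods describe the replicates as biological and independent.

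MicroRNAs are short RNAs that pair with messenger RNAs, mostly through the seed near their 5′ end, and lower their translation or stability. miR-103 and miR-107 lie within the pantothenate kinase genes, whose enzymes open coenzyme A synthesis, and they are known as regulators of insulin sensitivity in liver and fat, of caveolin-1 and of Dicer. Because miR-103 is held at similar levels in many tissues, it is also used as a reference to normalize miRNA PCR.

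The mature sequences are shown because the members can barely be told apart by sequence. They are from RefSeq for GRCm38.p6, written 5′ to 3′ with the seed, bases 2 to 8, in capitals. The assay names carry no arm suffix and were matched to the 3p arm.
miR-103-3p: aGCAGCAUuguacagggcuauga
miR-107-3p: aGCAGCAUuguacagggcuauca
The sequences were identical at 22 of 23 positions and differed by G22C, counted from the 5′ end with the base of miR-103-3p first. Their seed was shared by no other of the 1679 mature mouse miRNA names in the table. Whether each assay amplified some of the other member was not tested.

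The shared stretch comes from 3 genes, whose hairpins are given with the mature 3p arm in capitals. Mir103-1 lies at chr11:35782396-35782481 on the plus strand, within Pank3. Mir103-2 lies at chr2:131288052-131288137 on the plus strand, within Pank2. Mir107 lies at chr19:34820687-34820773 on the minus strand, within Pank1.
Mir103-1: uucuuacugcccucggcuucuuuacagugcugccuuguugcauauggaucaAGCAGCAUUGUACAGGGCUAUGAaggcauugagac
Mir103-2: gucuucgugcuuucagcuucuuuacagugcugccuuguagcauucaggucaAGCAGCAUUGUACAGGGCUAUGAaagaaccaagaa
Mir107: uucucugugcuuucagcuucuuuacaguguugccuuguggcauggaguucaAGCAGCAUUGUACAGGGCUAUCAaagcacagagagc
Mir103-1 and Mir103-2 yield the same mature 3p arm, so the miR-103 assay cannot tell the output of one gene from that of the other.

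A Ct is the cycle at which a well crosses the detection threshold, so a lower Ct is a higher level. The deposited normalized values are ΔCt, the Ct of an assay minus that of miR-26a in the same sample, and a group difference in ΔCt with its sign turned is a log2 difference in level. Across the series, card A gave a Ct for 214 to 337 of 375 miRNA assays per sample, with 214 to 258 in αTC1-6 at 24 h and 304 to 337 in αTC1-6 at 48 h. The Ct of miR-26a ran from 17.0 to 19.0. miR-375, the defining islet miRNA, had Ct values of 13.4 to 16.0. The acinar markers miR-216a, miR-216b and miR-217 had a Ct in every βTC1 sample and in 5 of their 36 wells in αTC1-6. The part played by either set of markers in the results below was not tested.

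miR-103 had a Ct in every sample in which its well was not blank, from 21.4 to 24.0. Relative to miR-26a, its ΔCt in untreated αTC1-6 at 24 h was 3.89, 4.40 and 5.24 in replicates 1 to 3. After 24 h of cytokines it was 4.08, 4.37 and 5.01. In untreated αTC1-6 at 48 h it was 3.95, 4.47 and 5.08. These 3 groups covered nearly the same range. After 48 h of cytokines the values were 5.50, 5.28 and 5.56, all at a lower level than any other αTC1-6 sample. In βTC1 the ΔCt was 3.23 and 4.42 in replicates 2 and 3, and the well of replicate 1 was blank in the normalized table.

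miR-107 had a Ct in all 15 samples, from 25.1 to 28.0. In untreated αTC1-6 at 24 h its ΔCt was 7.66, 7.73 and 8.03. After 24 h of cytokines it was 8.14, 9.05 and 9.08, so all 3 treated samples were at a lower level than all 3 untreated ones. In untreated αTC1-6 at 48 h the ΔCt was 8.03, 8.83 and 9.01. After 48 h of cytokines it was 9.27, 10.29 and 10.41, again with no overlap between treated and untreated samples. In βTC1 it was 8.59, 7.27 and 7.57, a range that held all 3 untreated αTC1-6 samples of 24 h.

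**Figure D1:**
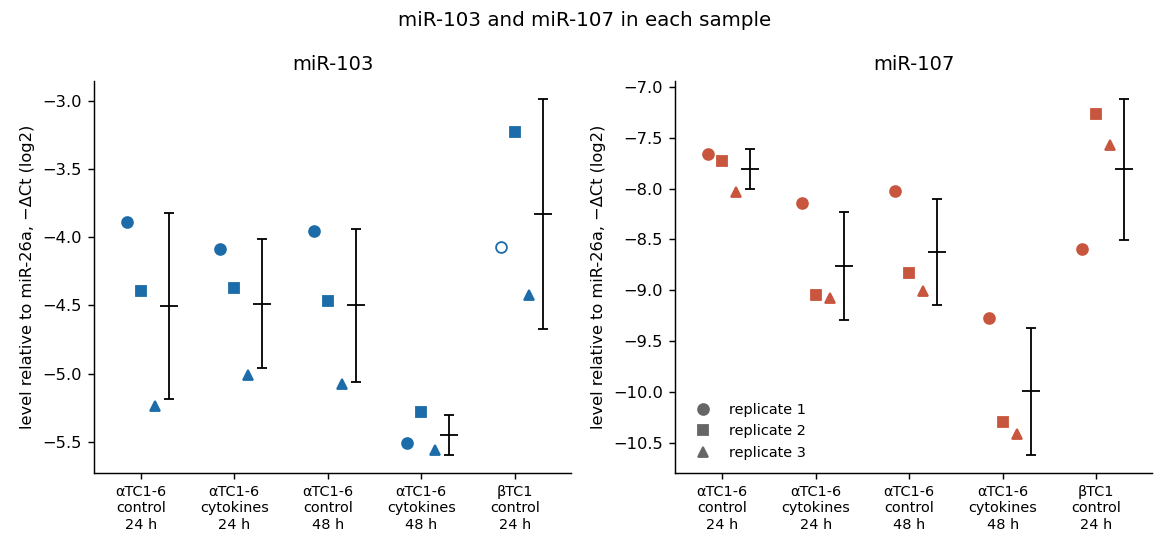
Level of miR-103 (left) and miR-107 (right) relative to miR-26a, as −ΔCt on a log2 scale, in each of the 5 groups. Symbols are replicates, black bars are the mean ± SD, and the open circle is the βTC1 replicate 1 value that only the non-normalized table holds, which is not part of the mean. Both miRNAs sit lowest after 48 h of cytokines, at mean ΔCt values of 5.45 and 9.99.

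In order of level, mean ΔCt of miR-103 was 3.83 ± 0.842 (SD, n = 2) in βTC1, 4.49 ± 0.472 (n = 3) in αTC1-6 after 24 h of cytokines, 4.50 ± 0.563 (n = 3) in untreated αTC1-6 at 48 h, 4.51 ± 0.681 (n = 3) in untreated αTC1-6 at 24 h and 5.45 ± 0.147 (n = 3) after 48 h of cytokines. Of the neighbours in this order, only the last pair did not overlap (exact permutation p = 0.1, two-sided, the smallest that 3 samples against 3 allow). For miR-107 the order was untreated αTC1-6 at 24 h with 7.81 ± 0.199, βTC1 with 7.81 ± 0.693, untreated αTC1-6 at 48 h with 8.62 ± 0.521, αTC1-6 after 24 h of cytokines with 8.76 ± 0.531 and after 48 h with 9.99 ± 0.626 (SD, n = 3 each). Here too, only the last pair of neighbours did not overlap (exact permutation p = 0.1). The share of all assays without overlap was not counted for the last pair of either member.

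Untreated αTC1-6 and βTC1 were compared to ask which miRNAs differ between the cell lines at steady state. Neither member passed the test, against 29.6% of the 480 assays tested (limma, Benjamini-Hochberg adjusted p under 0.05 within a card). miR-103 was 0.68 lower in αTC1-6 on the log2 scale (log2 difference −0.68, standard error 0.714, 95% interval −2.56 to 1.21, limma adjusted p = 0.524). This fit used the 2 βTC1 samples with a value, and either one alone decided its size: the difference was −0.08 without βTC1 replicate 2 and −1.27 without replicate 3. miR-107 differed by 0.00 (standard error 0.515, 95% interval −1.28 to 1.29, limma adjusted p = 0.994). The median over all assays tested was −0.52. Both intervals reach past 1 in each direction, so neither a doubling nor a halving was excluded at this number of samples.

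Cytokine-treated and untreated αTC1-6 were compared to ask which miRNAs change during an inflammatory challenge. At 24 h, miR-103 differed by 0.02 on the log2 scale (standard error 0.50, 95% interval −1.24 to 1.28, limma adjusted p = 0.987). miR-107 was lower, with a log2 difference of −0.95 (standard error 0.40, 95% interval −1.96 to 0.06), at a limma p of 0.0598 before and 0.963 after adjustment. Before adjustment 4.49% of the assays tested passed 0.05, and neither member did. After adjustment 0.225% of 445 assays passed, and again neither member did. With the replicate number as a block, the limma p of miR-107 was 0.033 (adjusted p = 0.424), 47 of 439 assays passed 0.05 before adjustment and 0 after it. Treated samples were lower without overlap for 7.19% of assays, of which miR-107 was 1.

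At 48 h the log2 difference was −0.95 for miR-103 (standard error 0.389, 95% interval −1.94 to 0.05, limma adjusted p = 0.567) and −1.37 for miR-107 (standard error 0.486, 95% interval −2.61 to −0.13, limma adjusted p = 0.480). Before adjustment the limma p was 0.058 for miR-103 and 0.0365 for miR-107. Of the 534 assays tested, 11.2% passed 0.05 before adjustment, miR-107 among them and miR-103 not. Neither passed after adjustment, and 0.562% of assays did. Both members were lower in all 3 treated samples than in any untreated one, as were 17.2% of assays. With the replicate number as a block, the limma p was 0.0584 for miR-103 and 0.00497 for miR-107 (adjusted p = 0.298 and 0.231), and 121 of 534 assays passed 0.05 before adjustment and 0 after it. The median of all assays on both cards was −0.51. Without normalization the 48 h differences were −0.86 for miR-103 and −1.28 for miR-107, and with each sample centred on the card median they were −0.64 and −1.06.

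The difference between the cytokine responses at 48 and 24 h was tested directly with an interaction term. It was −0.97 for miR-103 (standard error 0.622, 95% interval −2.37 to 0.43, limma adjusted p = 0.992) and −0.42 for miR-107 (standard error 0.613, 95% interval −1.80 to 0.96, limma adjusted p = 0.992). In this test 0.21% of 477 assays passed. In untreated αTC1-6, miR-103 differed by 0.01 between 48 and 24 h (standard error 0.521, limma adjusted p = 0.989). Relative to miR-26a, miR-107 had a log2 difference of −0.82 (standard error 0.394, 95% interval −1.81 to 0.18, limma adjusted p = 0.613), and its groups met at a ΔCt of 8.03. The sign of this difference was not the same under every reference, as given below. Of the 489 assays in that comparison 5.93% passed. Since the untreated samples of 24 h enter both the 24 h cytokine comparison and this one, the miR-107 values of the pair are not independent.

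Same-numbered treated and untreated samples deviated together across card A, so each replicate pair was also read on its own. miR-107 was lower with cytokines in 6 of 6 pairs, by log2 differences of −0.49, −1.32 and −1.05 at 24 h and −1.24, −1.46 and −1.40 at 48 h. Of the 310 assays with a Ct in all 12 αTC1-6 samples, 20.6% were lower in every pair relative to miR-26a. After centring on the card median, miR-107 stayed lower in 6 of 6 pairs, between −0.35 and −1.50, and 8.06% of assays did the same. miR-103 gave −0.20, 0.02 and 0.23 at 24 h, with no common direction. At 48 h it gave −1.55, −0.81 and −0.48, and after centring −1.26, −0.52 and −0.20. When the median was taken over only the assays with a Ct in all 12 αTC1-6 samples, the 48 h pairs of miR-103 were −1.04, 0.16 and 0.10, while miR-107 was still lower in 6 of 6 pairs, as were 5.48% of assays.

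**Figure D2:**
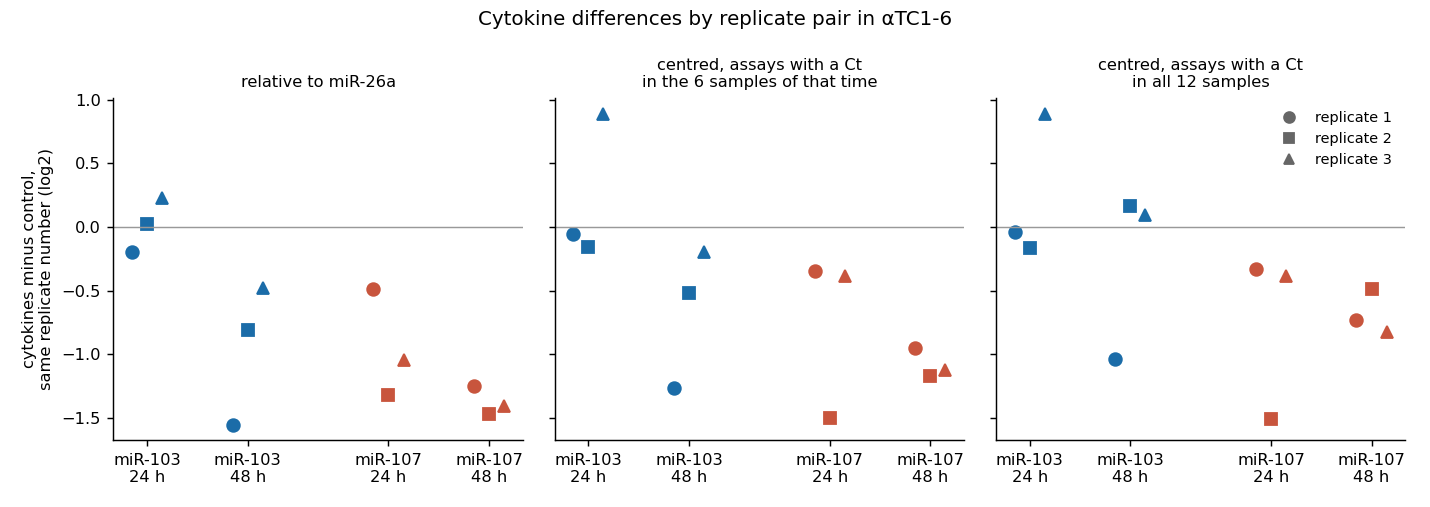
Log2 difference between cytokine-treated and untreated αTC1-6 of the same replicate number, for miR-103 (blue) and miR-107 (red) at 24 and 48 h, on 3 scales. Every miR-107 point lies under 0 on each scale, and miR-103 at 48 h crosses 0 on the last.

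The reference bears on the size of these differences, so both members were set against 13 reference RNAs 1 at a time: miR-26a, the other miRNAs commonly used for this purpose, U6 and small nucleolar RNAs. With cytokines at 24 h, miR-107 was lower against 13 of 13 references, by log2 differences from −1.05 to −0.64. At 48 h it was again lower against 13 of 13, from −1.55 against U6 to −0.39 against snoRNA202. Treated and untreated samples did not overlap under 7 of the 13 at 24 h and under 9 at 48 h. miR-103 was lower against 12 of 13 references at 48 h, from −1.13 to 0.03, but without overlap under only 1, miR-26a. In untreated αTC1-6 at 48 against 24 h, miR-26a gave the lowest value of both members. miR-107 ran there from −0.82 against miR-26a to 0.34 against U6, lower against 12 of 13. miR-103 ran from 0.01 against miR-26a to 1.16 against U6, lower against 0 of 13. Between αTC1-6 and βTC1 the reference decided the sign of both members, which ran from −1.20 to 1.17 for miR-103 and from −0.88 to 1.92 for miR-107. miR-103 was lower in αTC1-6 against 11 of 13 references and miR-107 against 4. The lines did not overlap under 6 of the 13 for miR-103, with 2 βTC1 values, and under 2 for miR-107. For miR-103 those were miR-24, miR-25, miR-26b and miR-191 with lower values, and miR-16 and miR-320 with higher ones. For miR-107, miR-16 and miR-320 gave higher values. The highest value of each member was against miR-320, which itself differed between the lines. The share of all assays lower without overlap was counted only for cytokines relative to miR-26a, at 7.19% (24 h) and 17.2% (48 h). It was not counted for the comparison of the lines or under the other references. These references share wells and samples, so their count describes the choice of reference and is not a number of independent results.

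**Figure D3:**
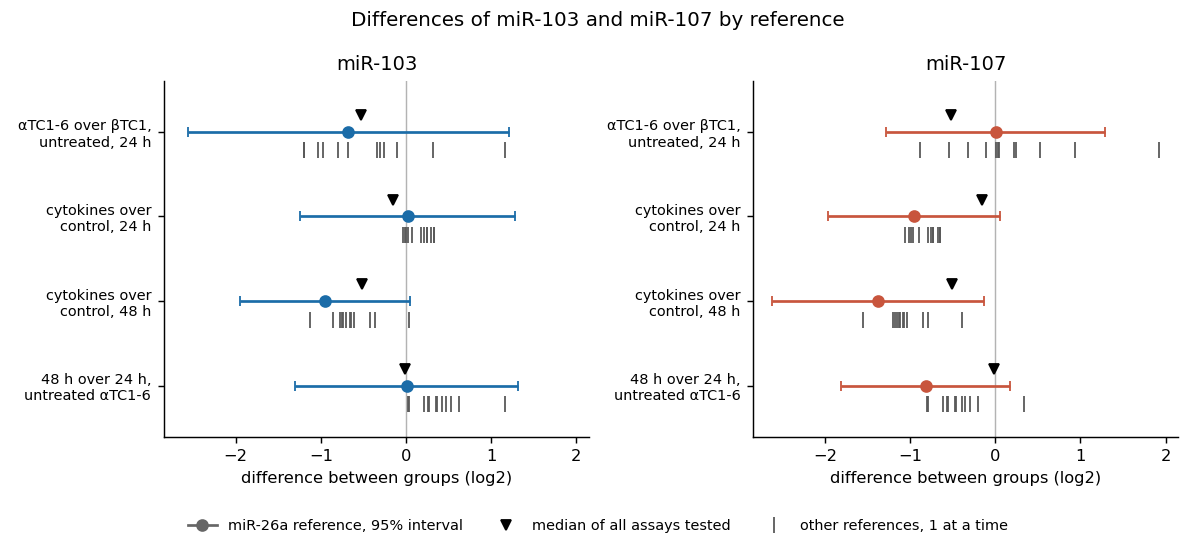
Log2 difference of miR-103 (left) and miR-107 (right) in 4 comparisons. Circles with bars are the value relative to miR-26a with its 95% interval, grey ticks are the values relative to each other reference RNA, and triangles are the median of all assays tested. For miR-107 every reference gives a value under 0 in both cytokine comparisons.

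The distance between the members needs no reference, since any reference cancels in Ct of miR-107 minus Ct of miR-103. miR-107 crossed the threshold later in all 14 samples with both values, by 2.80 to 5.01 cycles with a median of 4.05. The efficiency of the assays is not given in the sources used here, so the gap was compared between samples and not read as a ratio of molecules. In untreated αTC1-6 at 24 h the gap was 3.77, 3.33 and 2.80 cycles. After 24 h of cytokines it was 4.06, 4.67 and 4.07 cycles, wider in all 3 samples than in any untreated one, by 0.97 cycles (exact permutation p = 0.1, the smallest this design allows). In untreated αTC1-6 at 48 h it was already 4.08, 4.36 and 3.93 cycles, wider than at 24 h by 0.82 cycles without overlap (exact permutation p = 0.1). After 48 h of cytokines it was 3.77, 5.01 and 4.85 cycles, which overlapped the untreated samples of that time (difference 0.42 cycles, exact permutation p = 0.4). In βTC1 it was 4.03 and 3.15 cycles. The untreated αTC1-6 samples of 24 h had the narrowest mean gap, 3.30 ± 0.487 cycles (SD, n = 3), and both comparisons without overlap rest on them.

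**Figure D4:**
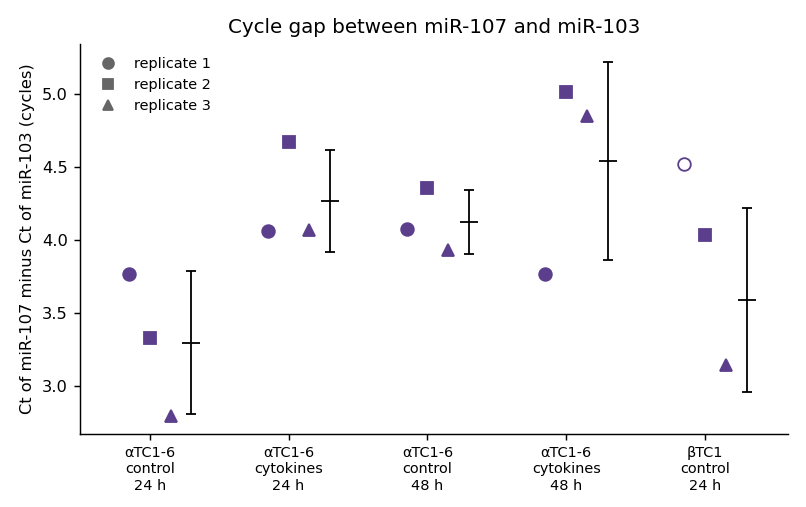
Ct of miR-107 minus Ct of miR-103, in cycles, for each sample, with the mean ± SD in black. The open circle is the βTC1 replicate 1 value from the non-normalized table, 4.52 cycles, which is not part of the mean. Untreated αTC1-6 at 24 h lies between 2.80 and 3.77 cycles, under every sample of the 24 h cytokine group.

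Ct values on card A were not spread evenly between whole cycles. Of 4164 values, 54.4% lay within 0.1 cycle of a whole number, where an even spread would place 20%, and the share ran from 36.6% to 71.9% between samples. Among the members it was 19 of 29 values. The 3 miR-107 wells of the 24 h cytokine group read 27.02, 27.01 and 27.04, and the miR-103 wells of βTC1 read 21.97 and 21.96. Replicate spread in raw Ct was very small in some groups. Differences under 1 cycle, which include most of those above, are of the size of this step, and its part in them was not tested. With every Ct rounded to whole cycles, the cytokine difference of miR-107 was 1 cycle at 24 h, and at 48 h the log2 difference was −1.67.

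**Figure D5:**
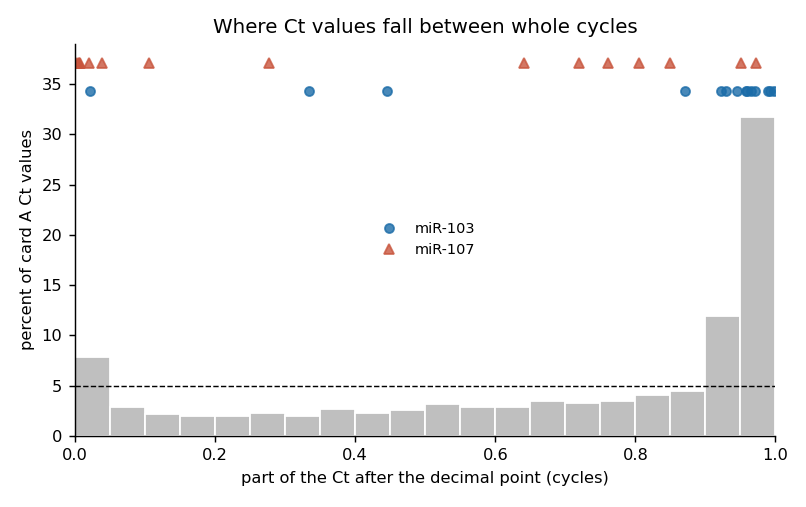
Share of card A Ct values, in percent, by the part of the value after the decimal point, in bins of 0.05 cycle, with the dashed line at an even spread. Circles and triangles are the values of miR-103 and miR-107. The tallest bin, with 31.7% of values, lies just under a whole cycle.

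The steadiness of each assay was described by the standard deviation over samples of its Ct difference from each other card A assay, averaged over those assays, which needs no reference. Over the 14 samples with a value for miR-103, this mean was 1.12 cycles for miR-103, 1.29 for miR-107 and 1.14 for miR-26a, beside a median of 1.30 over 160 assays. miR-103 held place 19, miR-26a place 31 and miR-107 place 80 from the steadiest. Within the 12 αTC1-6 samples miR-103 held place 55, miR-26a 48 and miR-107 133 of 175, at 0.70, 0.69 and 0.88 cycles. When each assay was read over every sample it had, miR-103 came first of 152 at 1.11 cycles, but it alone then lacked βTC1 replicate 1, and that place is not comparable.

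The assays whose Ct ran most nearly parallel to a member were found by the same standard deviation. For miR-103 over 14 samples they were miR-27b at 0.357 cycles, miR-129-5p, miR-344, miR-124, let-7a, let-7f, miR-361 and miR-151-3p at 0.444. For miR-107 over 15 samples they were again miR-27b, at 0.525 cycles, then miR-361, miR-93, miR-132, miR-148b, miR-151-3p, miR-129-5p and miR-28 at 0.641. The names in both lists are miR-27b, miR-361, miR-151-3p and miR-129-5p. The members were at 0.625 cycles from each other over 14 samples. That put miR-107 at place 45 among the neighbours of miR-103, and miR-103 at place 8 among those of miR-107. miR-103 is missing from the second list because the lists hold only assays with a Ct in all 15 samples. All assays of a card share 1 library and 1 amplification per sample, so their Ct values move together in part.

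miR-15, miR-16 and their relatives hold much of the same 5′ stretch as the members, shifted by a base, and they are known to slow the cell cycle. They are shown with bases 2 to 8 in capitals.
miR-15b-5p: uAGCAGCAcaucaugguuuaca
miR-16-5p: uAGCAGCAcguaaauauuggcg
miR-503-5p: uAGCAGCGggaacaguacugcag
Bases 2 to 8 of miR-15b and miR-16 match bases 1 to 7 of the members, and the match to miR-503 is 6 bases long, so none has the members' seed. Of 7 listed relatives, 2 passed the test between the lines, a share close to the 29.6% of all assays, and both were lower in αTC1-6 at 24 h. miR-322 had a log2 difference of −4.09 (limma adjusted p = 0.00431), and miR-503 had a Ct in each βTC1 sample and in none of the untreated αTC1-6 samples at 24 h. miR-503 also had a Ct in each untreated αTC1-6 sample at 48 h, where it passed as higher than at 24 h. Both calls of miR-503, and the sizes of its differences, rest on the fixed Ct given to undetermined wells. They therefore give detection and not a measured change in level. Of the 29 assays past the threshold between 48 and 24 h, 27 were higher at 48 h. With undetermined wells as missing, 2 assays passed that comparison. Between the lines, the median of the 7 relatives was −0.84, beside −0.52 over all assays. None of the 6 tested passed with cytokines at 24 h and none of 7 at 48 h, where the median was −0.34 and miR-15b, at −0.83, came nearest the members' values.

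Of 9 miRNAs often used, like miR-103, as PCR references, miR-320 passed between the lines, at −1.92 (limma adjusted p = 0.0173), and none passed with cytokines. Their medians were −0.22 at 24 h and −0.29 at 48 h of cytokines, beside 0.02 and −0.95 for miR-103 and −0.95 and −1.37 for miR-107. One miR-320 well, in the third replicate of αTC1-6 after 48 h of cytokines, read a Ct of 6.38 where the other 14 read 21.3 to 24.0, and it was left out where miR-320 served as 1 of the 13 references.

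Among 13 miRNAs linked, like the members, to insulin action and lipid metabolism, 10 were tested between the lines and 5 passed, where 29.6% of all assays did. miR-29a, miR-29b and miR-29c, which restrain collagen and insulin signalling genes, were higher in αTC1-6 by 2.29, 2.10 and 1.60 on the log2 scale. miR-378, which lies within the metabolic coactivator gene Ppargc1b, was lower, at −4.85. miR-802, counted among the 5, passed as lower too, with a Ct in each βTC1 sample and in no αTC1-6 sample of 24 h. Both its call and the size of its difference therefore rest on the Ct of 40 given to undetermined wells. With cytokines none of 9 passed at 24 h or of 12 at 48 h. miR-27b, the assay most parallel to both members, had a log2 difference of −0.48 at 24 h and −0.94 at 48 h (limma adjusted p = 0.963 and 0.480). Its parallel run was read from these same samples, treated ones included, so these values are not independent of those of the members.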

How the data were processed

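TaqMan Rodent miRNA A and B cards were read by the authors from 180 ng of total RNA per sample after reverse transcription and preamplification. The deposited tables hold Ct values in cycles and ΔCt on a log2 scale, which are 0 for miR-26a in every sample. Undetermined wells were taken at a Ct of 40 here. The study's methods name Real-Time Statminer and several reference genes, so these deposited ΔCt may differ from the values the authors tested; threshold settings are not given in the sources used here. A deposited table of the authors' own fold changes was not used. Groups follow the labels.

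Here, wells of 1 assay were averaged with undetermined wells at a Ct of 40, and assays with a Ct under 40 in 3 or more of the 6 samples compared (6 of 12 for the interaction) were kept. The tests did not include the reference miR-26a or the 7 assays of control RNAs. The main model was limma 3.58.1 (R 4.3.3) on −ΔCt (eBayes, two-sided, Benjamini-Hochberg within each card at 0.05), checked on simulated data. Exact permutation tests went through every arrangement of the samples with numpy 2.4.6, and tables used pandas 2.3.3 in Python 3.11.15. On card A, 149 of 4288 wells with a Ct in both tables differed by over 0.01 cycle between the normalized and the non-normalized one, none of them a member's. Precision is limited by 3 replicates a group; Ct tables carry no read depth.

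Same-numbered treated and untreated αTC1-6 samples correlated in their deviations from the group means at 0.409 to 0.528 (24 h) and 0.621 to 0.721 (48 h), so the numbers were taken to pair these samples from the data; between the lines the correlations were −0.22 to 0.003. Named assays are the members, the 8 assays of lowest Ct-difference SD to each, the lists and the reference RNAs. The members and lists were chosen with earlier results of these data known. Alternatives were other references, filters, treatments of undetermined wells, a replicate block, the non-normalized table and each replicate left out. Sequences and positions are from RefSeq for GRCm38.p6.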

Additional observations from a re-analysis of the deposited data

Results flagged for a closer look

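The well of miR-103 in βTC1 replicate 1 was blank in the normalized table, but the non-normalized table holds a Ct of 22.5 for it, a ΔCt of 4.07 against miR-26a of the same sample. It is listed here because it is a signal in a well that the main comparison of the lines does not use, earlier than the plant control assay of the same card at 30.8. With it, the βTC1 values of miR-103 were 4.07, 3.23 and 4.42, and the log2 difference of untreated αTC1-6 from βTC1 was −0.60 (limma adjusted p = 0.577) in place of −0.68. Why the value is blank in the other table was not tested.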

How the results depend on the processing

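Neither member passed the adjusted threshold in any comparison under any alternative fitted with limma. Single references and replicate pairs were described without a test. Each cytokine difference of miR-107 and the 48 h difference of miR-103 kept its sign, apart from 0.03 for miR-103 against snoRNA202 as the only reference. At 24 h miR-107 ran from −1.14 to −0.76 and at 48 h from −1.69 to −1.02 under the limma settings that kept every replicate. With 1 replicate left out it ran from −1.26 to −0.79 at 24 h and from −1.73 to −1.07 at 48 h. The −1.69 is against the mean of the reference miRNAs with the miR-320 well of Ct 6.38 in it, and without that well it was −1.04. Values near 0 changed sign. The 24 h cytokine difference of miR-103 was −0.17 without normalization, and the miR-107 difference between the lines was −0.25 with U6 and small nucleolar RNAs as reference and −0.81 with untreated αTC1-6 of 48 h in place of 24 h. The difference between the cytokine responses of miR-107 was 0.040 after centring on the card median. With 1 replicate left out in turn, miR-103 ran from −0.35 to 0.33 for cytokines at 24 h and from −0.36 to 0.32 for 48 against 24 h, and between the lines miR-103 ran from −1.27 to −0.08 and miR-107 from −0.39 to 0.27. The cause of these changes was not tested. The gap between the lines ran from −0.74 to 0.15 cycles in the same way.

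With the replicate number as a block, the pairing gave limma p of 0.033 for miR-107 at 24 h (adjusted p = 0.424) and 0.00497 at 48 h (adjusted p = 0.231), and 0.0584 for miR-103 at 48 h (adjusted p = 0.298). The block changed no adjusted call of a member, and it took the assays past the threshold from 1 to 0 at 24 h and from 3 to 0 at 48 h. Number of replicates, whole-cycle steps in Ct and a single reference miRNA limit these values.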
